A study of Rattus norvegicus with 66 samples.

Results

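Voltage-gated sodium channels were followed through 7 of their subunit genes, among the 37777 genes counted, in the dorsal hippocampus of rat pups on postnatal day (PND) 6. The members were chosen by symbol as the subunits prominent in the brain: the pore-forming alpha subunits Scn1a, Scn2a, Scn3a and Scn8a, and the auxiliary beta subunits Scn2b, Scn3b and Scn4b. All 7 were found, each as 1 row. Scn2a carries the older symbol Scn2a1 in the gene map and was matched by its NCBI gene number.

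The pups were Long Evans offspring of dams that received 1 of 3 chemicals or a control treatment. Dams on dosed chow received it from before mating through mating, pregnancy and lactation, and injected dams were treated during pregnancy and lactation. Aroclor 1254, a mixture of polychlorinated biphenyls, was given in chow at 0.5 or 5 mg/kg (Aro0.5, Aro5), and bisphenol A in chow at 0.5 or 5 mg/kg (BPA0.5, BPA5). The insecticide chlorpyrifos was injected subcutaneously at 1 or 3 mg/kg (CPF1, CPF3). Controls were the feeding control CONF on soy-free chow and the injection control CONSC, whose vehicle is saline in the labels and DMSO in the study's methods. The 64 pups (41 males, 23 females, from 44 litters) form 13 groups of 4 to 7 pups, since the lower doses were sequenced in males alone. Pups of a litter share a dam, and the dissected piece held a little of the lateral neocortex beside the hippocampus.

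A sodium channel is built from 1 alpha subunit, which forms the voltage sensor and the pore, and from beta subunits that are immunoglobulin-like adhesion proteins and tune its gating and surface level. The alpha genes replace each other as neurons mature. Scn3a is known as the embryonic and neonatal form, Scn2a serves young axons and their initial segments, Scn8a takes over at mature initial segments and nodes, and Scn1a carries the spikes of fast-spiking interneurons. Scn2b and Scn4b bind the alpha subunit through a disulfide bond, Scn3b does so without one, and Scn4b is known to provide the blocking particle behind resurgent current.

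The 66 libraries held 10644138 to 86206550 counts, with a median of 20740650.5. A pup of the CONF males (N2-2y) and a pup of the CONF females (N4-3x) had 2 libraries each, which were summed. The Y-linked gene Eif2s3y matched the labelled sex in 64 of 64 pups. Library names come in 2 spellings, here called form A and form B. In males form A ends in a capital Y and form B in a lower-case y, while in control females form A sets the group name off with a low line (_) and form B does not. All 20 high-dose male libraries have form B, all 12 low-dose male libraries have form A, and 9 of the 10 control male libraries have form A, so that form and high-dose treatment cannot be told apart in males. Of the 11 control female libraries, 5 have form A and 6 form B. The names of the 13 treated female libraries share features of both and were given no form, so name form was not compared between treated and control females. Marker sums of neighbouring regions differed widely between pups: the 4 striatal markers (Drd1, Drd2, Adora2a, Ppp1r1b) summed to 48 to 790 CPM (counts of a gene per 1000000 counts of the pup), the 4 thalamic ones to 88 to 834 CPM and the 4 neocortical ones (among them Rorb, Cux2 and Tbr1) to 76 to 705 CPM. The hippocampal markers Prox1 and Neurod6 were present in every pup, at 22.9 to 182 CPM and 12.1 to 200 CPM. In bulk tissue, fewer cells of a type and less RNA per cell cannot be told apart.

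The stretch of 250 bases before the start of 3 alpha genes is shown because these genes moved together between pups while the Scn8a promoter differs from those of Scn2a and Scn3a. The sequences come from RefSeq for build GRCr8, not from the build of the counts. Of the 7 members, 5 were in that table, and Scn1a and Scn3b were not. The start sites of Scn3a (chr3:70666199-70666448, minus strand) and Scn2a (chr3:70710706-70710955, plus strand) are neighbours that face away from each other. Scn8a lies at chr7:133860977-133861226, plus strand. Capitals mark the GC box GGGCGG, searched on both strands.
Scn2a: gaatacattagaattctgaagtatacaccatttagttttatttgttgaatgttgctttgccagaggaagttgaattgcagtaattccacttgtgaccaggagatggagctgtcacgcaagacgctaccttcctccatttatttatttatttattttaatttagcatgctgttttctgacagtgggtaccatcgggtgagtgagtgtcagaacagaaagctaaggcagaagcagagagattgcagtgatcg
Scn3a: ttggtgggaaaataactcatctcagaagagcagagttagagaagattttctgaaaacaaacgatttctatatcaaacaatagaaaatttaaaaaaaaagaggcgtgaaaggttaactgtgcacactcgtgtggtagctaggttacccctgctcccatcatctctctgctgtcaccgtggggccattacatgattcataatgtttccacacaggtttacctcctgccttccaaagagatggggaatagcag
Scn8a: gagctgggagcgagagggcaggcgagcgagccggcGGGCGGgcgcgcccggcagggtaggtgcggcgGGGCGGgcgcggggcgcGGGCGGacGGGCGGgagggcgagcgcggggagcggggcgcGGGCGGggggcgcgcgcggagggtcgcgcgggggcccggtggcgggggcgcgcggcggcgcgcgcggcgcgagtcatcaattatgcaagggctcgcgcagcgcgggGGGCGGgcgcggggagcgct

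GC content was 39.6% for Scn2a, 41.6% for Scn3a and 86% for Scn8a, beside a median of 51.2% over 33469 promoters cut to the same 250 bases. The dinucleotide CG occurred 4 times each in the Scn2a and Scn3a windows and 53 times in the Scn8a window, where the median promoter had 5. GGGCGG was found at 6 places in the Scn8a window and in neither of the other two, and 30.5% of all promoters hold it. The Scn2b and Scn4b windows had no GC box either, with a GC content of 38.8% and 71.6%. The other motifs searched, on both strands, were the TATA box TATAAA (12.9% of all promoters), the E-box CANNTG (65.5%), the cAMP response element TGACGTCA (1.59%), the AP-1 site TGAGTCA (4.05%) and the parts TTCAGCACC (0.305%) and GGACAGC (5.30%) of the RE1 silencer element. The E-box letters stood in 3 of the 5 windows (Scn2a, Scn2b and Scn4b) and the others in none.

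All 7 subunits were detected in every pup. Transcript lengths were not used, so the subunits are not ranked against each other. Over the 64 pups Scn1a had 4.39 to 19.4 CPM (median 9.91), Scn2a 169 to 385 CPM (median 278), Scn3a 71.2 to 165 CPM (median 103) and Scn8a 31.3 to 87.8 CPM (median 53.4). Scn2b had 23.7 to 128 CPM (median 86.6), Scn3b 311 to 514 CPM (median 401) and Scn4b 2.96 to 22.5 CPM (median 8.11). Scn3b was the steadiest between pups, with a coefficient of variation of 9.95%, followed by Scn2a with 13.7%. Scn4b and Scn1a varied the most, with 45.7% and 33.7%.

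**Figure D1:**
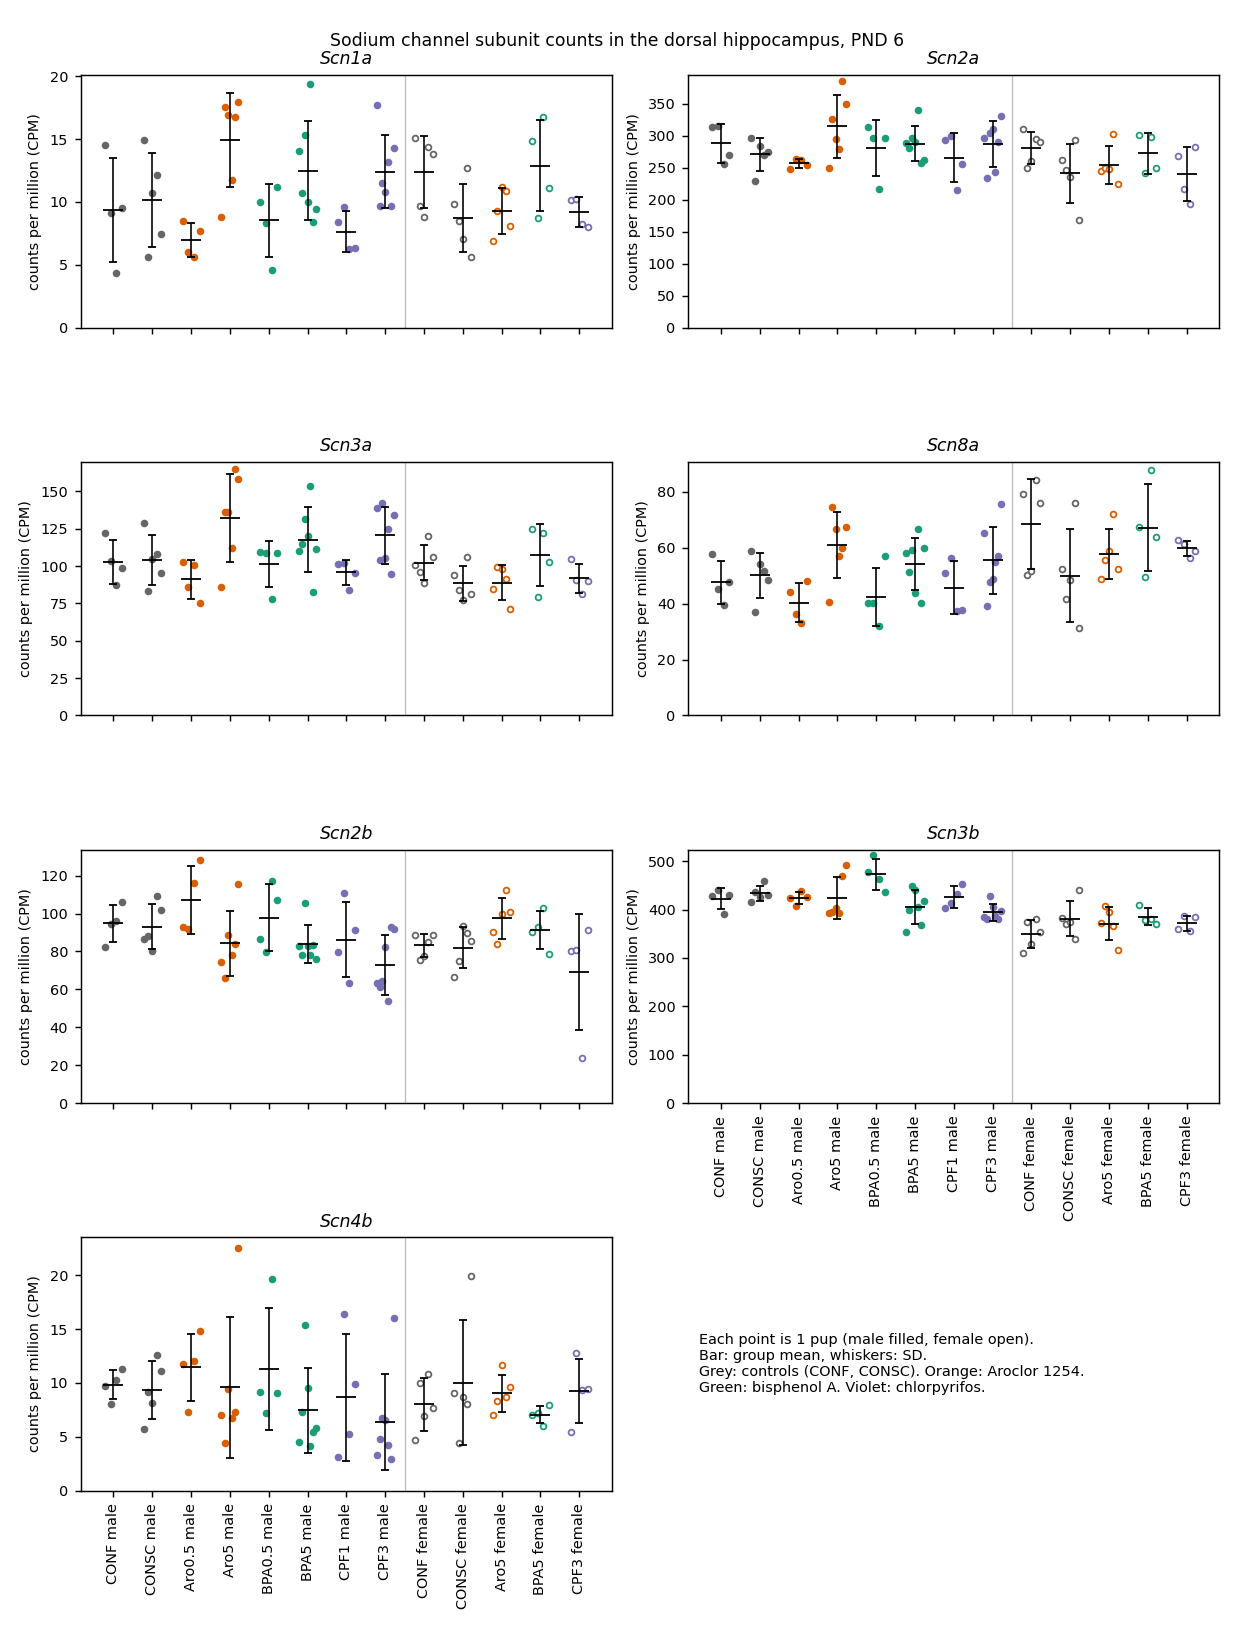
CPM of the 7 subunits (y axes, from 0) in each pup of the 13 groups (x axes); points are pups, bars group means and whiskers SD. Scn3b stays between 311 and 514 CPM, while Scn4b spans 2.96 to 22.5 CPM with single high pups in several groups.

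In the order of group means of each subunit, nearly all neighbouring groups differed by less than an SD. With 13 groups in order small steps are likely, and groups far apart in it can be separate. Scn3b, for one, had 437 to 514 CPM in BPA0.5 males and 311 to 381 CPM in CONF females. Scn1a, Scn2a and Scn3a had their highest mean in Aro5 males, at 14.9 ± 3.74 CPM (SD, n = 6), 315 ± 49.2 CPM and 132 ± 29.4 CPM. Their lowest means stood in Aro0.5 males for Scn1a (6.95 ± 1.36 CPM, n = 4), in CPF3 females for Scn2a (240.2 ± 42.2 CPM, n = 4) and in CONSC females for Scn3a (88.5 ± 11.7 CPM, n = 5). Scn8a ran from 68.4 ± 16.2 CPM in CONF females (n = 5) to 40.4 ± 6.9 CPM in Aro0.5 males.

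Among the beta subunits, Scn2b ran from 107 ± 18 CPM in Aro0.5 males to 69 ± 30.7 CPM in CPF3 females. Scn4b ran from 11.5 ± 3.1 CPM in Aro0.5 males to 6.36 ± 4.48 CPM in CPF3 males (n = 7). Scn3b ran from 473 ± 31.9 CPM in BPA0.5 males (n = 4) to 350 ± 29.7 CPM in CONF females. Of the 12 steps between neighbouring groups in the order of each gene, none exceeded the larger SD of the neighbours for 6 of the subunits, and 1 did for Scn3b, between BPA0.5 males and the next group.

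The main question of the design was whether exposure changed expression, so each treated group was compared with the combined controls of its sex by the quasi-likelihood test of edgeR, adjusted over all genes. None of the 7 subunits passed an adjusted p of 0.05 in any of the 9 treatment comparisons. Of the 63 log2 differences, 61 were under 0.5 in size, and they ran from -0.57 (Scn4b, CPF3 males) to 0.61 (Scn1a, Aro5 males). The lowest adjusted p was 0.254, 6 of the 63 had an unadjusted p under 0.05, and the Wald test of DESeq2 called 0 of 7 in each comparison as well. Of all genes tested, edgeR called 0.195% in males exposed to Aro5, 0.189% in BPA5 males and 0.159% in CPF3 males. It called 0.124% in Aro0.5, 0.0434% in BPA0.5 and 0% in CPF1 males, and 0% in each of the female groups (0% for Aro5, 0% for BPA5, 0% for CPF3). In the 4 comparisons without a call by edgeR, 322 genes in CPF1 males and 548, 694 and 1493 genes in the females, in the same order, had an unadjusted p under 0.05, and DESeq2 called 0, 1, 1 and 3 genes.

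**Figure D2:**
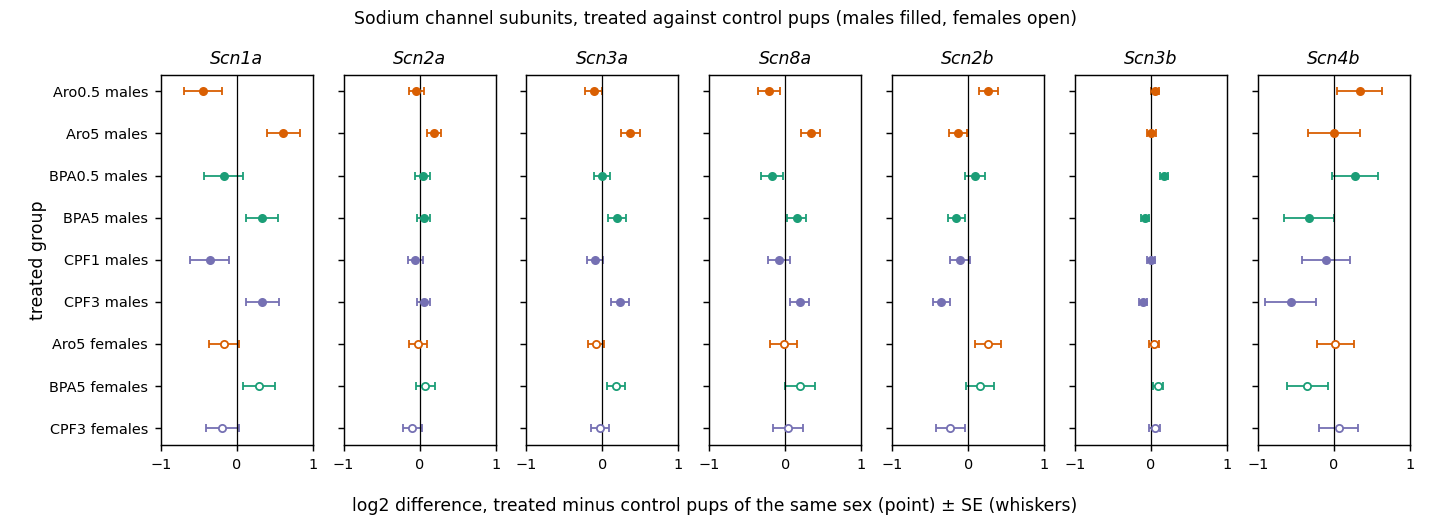
Log2 difference of each subunit (x axes, points, with SE as whiskers) between a treated group and the controls of its sex, for the 9 treated groups (y axis). The 4 alpha subunits sit right of 0 in the 3 high-dose male groups, which share the same 9 control males, and no difference passed the adjusted threshold.

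The lowest adjusted p was that of Scn3a in Aro5 males, where the 3 other alpha subunits also had an unadjusted p under 0.05, as did 11.8% of all genes. Scn3a, the neonatal form, had 85.9 CPM in the lowest, 136 CPM in the median and 165 CPM in the highest of 6 Aro5 males, against 83.2, 103 and 129 CPM in the 9 control males. In 4 of the 6 Aro5 males Scn3a exceeded the highest control, and the lowest Aro5 male, pup 108-1y, lay near the lowest control. The highest pups, 120-1y (165 CPM) and 120-2y (158 CPM), are littermates. The log2 difference was 0.37 ± 0.13 (SE; adjusted p = 0.254). With 1 pup per litter, edgeR called 0 of the 7 subunits in Aro5 males. An unadjusted p under 0.05 was found for 4 of them and for 1682 of 16511 genes.

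Scn1a had 8.81, 16.8 and 17.9 CPM as the lowest, median and highest value in Aro5 males and 4.39, 9.49 and 14.9 CPM in control males. Again 4 of 6 Aro5 males lay above every control, and the log2 difference was 0.61 ± 0.22 (adjusted p = 0.265). For Scn8a, the mature axonal form, the same 3 values were 40.6, 63.2 and 74.7 CPM against 37.1, 48.6 and 58.9 CPM, with a log2 difference of 0.33 ± 0.13 (adjusted p = 0.301). Scn2a had 249.9, 311 and 385 CPM against 229, 275 and 315 CPM, with 3 of 6 Aro5 males above every control and a log2 difference of 0.19 ± 0.09 (adjusted p = 0.401).

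The neocortical marker sum was also high in these pups: 371 to 598 CPM in Aro5 males against 175 to 472 CPM in control males. Its part in the alpha subunits' differences was not tested. With name form as a covariate the 4 log2 differences were 0.08 to 0.33 by edgeR. That fit took libraries in place of pups and rests on the 1 control male library of form B, from pup N2-2y. It therefore cannot tell the part of name form from that of treatment. DESeq2 was not run with that covariate.

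The calls of these genes changed with the window of dissection times. The study's methods state a window of 10.30 to 13.20 for sequenced brains, but the labels place some pups outside it. The main comparisons kept these pups. With pups dissected between 10.30 and 13.20 alone, which leaves out 11 of the 64 pups, 3 of the 7 subunits passed in Aro5 males: Scn3a at 0.62 (adjusted p = 0.0263), Scn1a at 1.03 (0.0301) and Scn8a at 0.56 (0.0422), while Scn2a had 0.32 (0.0924). In that comparison 4.96% of all genes were called. Left out are the Aro5 males 108-1y (dissected at 15.45) and 117-4y, and 3 of the CONSC males. Without pup 108-1y alone, the adjusted p was 0.0514 for Scn3a, 0.076 for Scn1a and 0.075 for Scn8a, with 176 genes called in place of 32.

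In BPA5 and CPF3 males the alpha subunits gave smaller values of the same sign: Scn3a had a log2 difference of 0.19 ± 0.12 and 0.23 ± 0.12, and Scn1a 0.34 ± 0.21 in both (adjusted p 0.432 to 0.621). Scn3a ranged over 82.6 to 154 CPM in BPA5 males and 94.6 to 142 CPM in CPF3 males, each overlapping the control range. In the low-dose males, whose libraries have form A like the controls, Scn1a had a log2 difference of -0.44 ± 0.25 (Aro0.5), -0.17 ± 0.25 (BPA0.5) and -0.36 ± 0.26 (CPF1). All 6 of these comparisons share the same control males.

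Among the beta subunits, Scn2b in CPF3 males and Scn3b in BPA0.5 males had an unadjusted p under 0.05. Scn2b had 54, 64.3 and 92.8 CPM as the lowest, median and highest value in 7 CPF3 males, against 80.4, 94.7 and 109 CPM in control males. All 7 CPF3 males lay below the control mean and 4 of them below the lowest control, with a log2 difference of -0.35 ± 0.11 (adjusted p = 0.257). With name form as a covariate the difference was -0.14 ± 0.24, which again rests on the 1 control male library of form B.

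Scn3b in BPA0.5 males had 437, 463, 478 and 514 CPM, against 390 to 458 CPM in control males. The 3 highest exceeded every control, and the log2 difference was 0.17 ± 0.05 (adjusted p = 0.398). Scn4b had the widest errors: its SE reached 0.34 in Aro5 males, where 5 pups lay between 4.39 and 9.44 CPM and pup 120-2y at 22.5 CPM.

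In females no difference exceeded 0.35 in size. Scn1a had log2 differences of -0.17 ± 0.20 (Aro5), 0.30 ± 0.21 (BPA5) and -0.19 ± 0.22 (CPF3). Scn2b had 84.2 to 112 CPM in Aro5 females against 66.6 to 93.2 CPM in control females, with 3 of 5 pups above every control and a log2 difference of 0.26 ± 0.17 (adjusted p = 0.999). In CPF3 females Scn2b had 80.2, 81, 91.3 and 23.7 CPM, the last in pup 43-3x, and the log2 difference was -0.24 ± 0.19 with that pup included. The 6 other subunits of pup 43-3x lay within the range of the other 63 pups.

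Whether a treatment effect differed between the sexes was tested as an interaction. None of the 7 subunits passed for any chemical by edgeR or DESeq2, and edgeR called 0.0984% of all genes for Aro5, 0.0405% for BPA5 and 0.0463% for CPF3. The closest were Scn3a and Scn1a for Aro5, whose effect in females minus that in males was -0.46 ± 0.18 and -0.80 ± 0.31 on the log2 scale (unadjusted p 0.0109 and 0.0135, adjusted p 0.405 and 0.416). Within the window of dissection times both passed, at -0.74 (adjusted p = 0.0337) and -1.30 (adjusted p = 0.0399), with 3.49% of all genes called.

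The combined controls were checked for a difference between feeding and injection. None of the 7 subunits passed in males or females by edgeR or DESeq2, and 1 of the 14 had an unadjusted p under 0.05 by edgeR. In males 0.013% of all genes were called, and in females 0%, with 713 genes at an unadjusted p under 0.05. The subunits' log2 differences between CONF and CONSC males were small, from -0.08 to 0.10. In females Scn1a had 8.84, 9.71, 13.8, 14.3 and 15.1 CPM in CONF and 5.63, 7.06, 8.48, 9.81 and 12.7 CPM in CONSC pups, a difference of 0.52 ± 0.22 (adjusted p = 0.85). Scn8a had a difference of 0.46 ± 0.22 and Scn3b of -0.12 ± 0.07 (adjusted p = 0.85 for both). The values of these female groups overlap.

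The sexes were compared in the controls. Scn3b was lower in control females, and it was the only subunit to pass. It had 311, 372 and 439 CPM as the lowest, median and highest value in 10 control females and 390, 429 and 458 CPM in 9 control males, and 9 of the 10 females lay below the lowest male. The log2 difference was -0.19 ± 0.05 (adjusted p = 0.0037). The comparison called 30.9% of all genes, so 1 of 7 subunits is below the share of the background.

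Scn8a had 31.3, 52 and 84.4 CPM in control females and 37.1, 48.6 and 58.9 CPM in control males. The female values spread over a wider range and 4 of 10 lay above every male, with a log2 difference of 0.31 ± 0.16 (adjusted p = 0.132). For Scn2b the difference was -0.14 ± 0.07 (adjusted p = 0.135), with 66.6 to 93.2 CPM in females and 80.4 to 109 CPM in males.

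**Figure D3:**
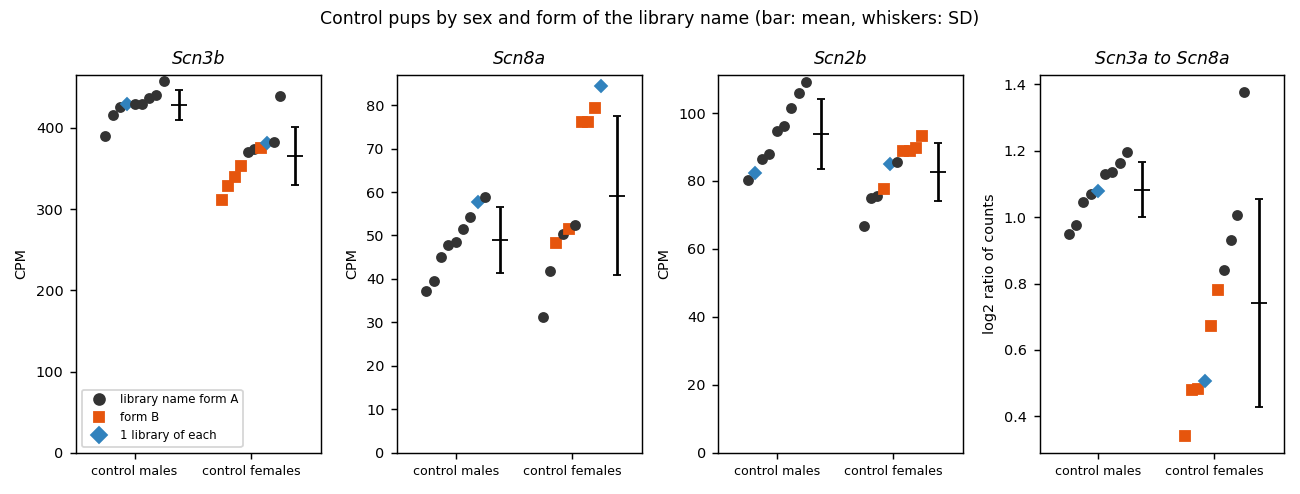
Scn3b, Scn8a and Scn2b (CPM) and the log2 count ratio of Scn3a to Scn8a (y axes) in control males and control females (x axes), marked by the form of the library name; bars are means and whiskers SD. Female pups of form B sit at 311 to 375 CPM for Scn3b and at ratios of 0.34 to 0.78, and those of form A at 370 to 439 CPM and 0.84 to 1.38.

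Library name form moved with these values in females, but form was not balanced over the control routes. Form A held the CONF female N2-4x and the CONSC females 9-1x, 11-3x and 13-8x. Form B held the CONF females N1-8x, N3-1x and N8-1x and the CONSC females 6-7x and 8-2x. Scn3b had 370 to 439 CPM in the 4 control females of form A and 311 to 375 CPM in the 5 of form B, and Scn8a 31.3 to 52.4 CPM and 48.4 to 79.3 CPM. A fit of form B against form A among control females called 1.43% of all genes and none of the subunits, with log2 differences of -0.14 ± 0.06 for Scn3b, 0.46 ± 0.22 for Scn8a and 0.21 ± 0.07 for Scn2b (unadjusted p 0.0455, 0.0555 and 0.0089). In that fit pup N4-3x has a library on each side, and form and control route were not separated.

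The sex difference of Scn3b was -0.13 with name form as a covariate (adjusted p = 0.0544, 18.9% of all genes called) and -0.13 among libraries of form A alone (adjusted p = 0.15, 11.7% called). With the litter as a replicate block, over 14 pups of 7 litters, Scn3b had -0.21 (adjusted p = 0.01996), Scn2b also passed at -0.18 (adjusted p = 0.0456), and 20.2% of all genes were called. Without the CONSC female 9-1x, Scn8a passed at 0.39 (adjusted p = 0.0234). That pup, of form A, had the highest striatal marker sum of all pups, at 790 CPM, and the lowest sum of the hippocampal markers Prox1, Zbtb20, Wfs1 and Neurod6, at 108 CPM.

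The pups with a library of each form carry 1 pup number in the labels and were treated as repeats of 1 pup, although the labels of N4-3x give different dissection times for its libraries (12.09 and 11.55). In the male N2-2y the form B library read lower than form A for Scn3b (393 against 468 CPM), Scn3a (111 against 134 CPM), Scn2a (283 against 348 CPM) and Scn1a (12.1 against 17.1 CPM), and about equal for Scn8a (58.8 against 56.8 CPM) and Scn2b (81.3 against 83.5 CPM). In the female N4-3x both libraries were close for Scn3b (376 against 384 CPM), Scn3a (116 against 122 CPM) and Scn8a (85.7 against 83.6 CPM), and the form B library read lower for Scn1a (13.1 against 15.1 CPM).

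The balance between the neonatal Scn3a and the later Scn1a and Scn8a was read as the log2 ratio of their counts within a pup, which needs no scaling by library size. Transcript length enters each ratio as a constant, so only differences between groups are interpreted. Scn3a counts were 6.66 to 19.9 times those of Scn1a (median 9.8) and 1.27 to 3.04 times those of Scn8a (median 1.98) over the 64 pups. An exact 2-sided permutation test was made for each ratio in 12 comparisons, 24 in all. None passed after adjustment, and 2 had an unadjusted p under 0.05.

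**Figure D4:**
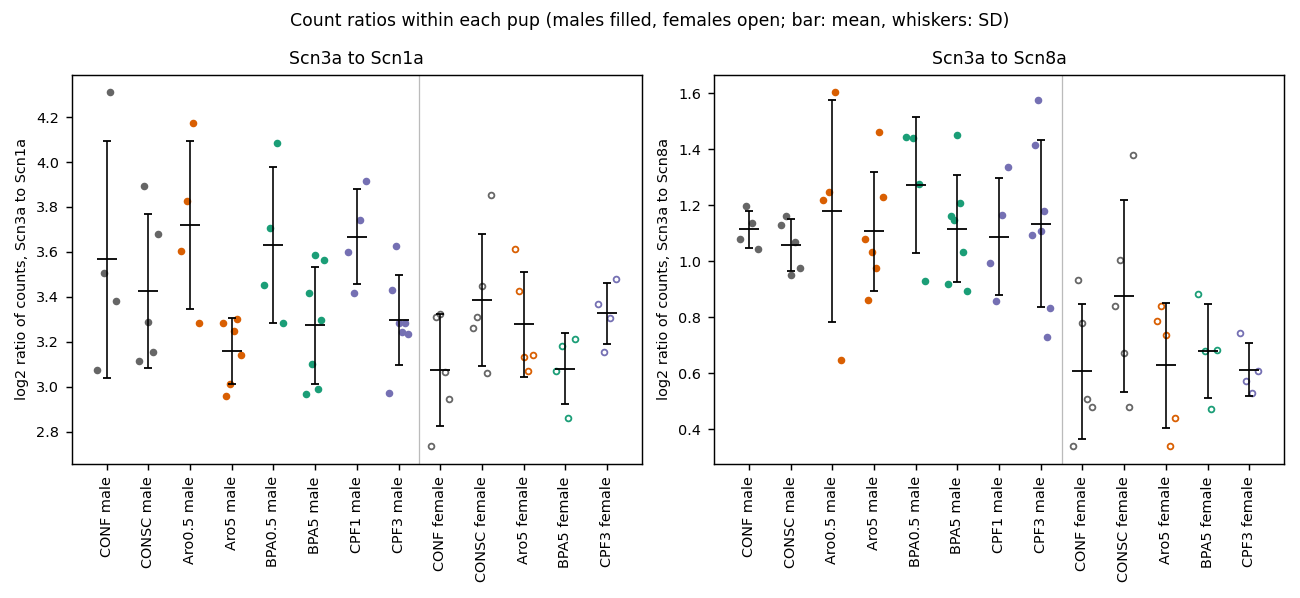
Log2 ratio of the counts of Scn3a to Scn1a (left) and of Scn3a to Scn8a (right) within each pup (y axes) for the 13 groups (x axes); bars are means and whiskers SD. Scn3a to Scn8a has its median at 1.13 in the 41 males and at 0.68 in the 23 females, with overlapping ranges.

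The largest difference was that of Scn3a to Scn8a between the sexes of the controls: 0.74 ± 0.31 (SD, n = 10) in females and 1.08 ± 0.08 (n = 9) in males, a difference of -0.34 (exact permutation p = 0.00681, adjusted p = 0.163). Control males lay between 0.95 and 1.20, and 6 of 10 control females below 0.80. Without the CONSC female 9-1x, whose ratio of 1.38 was above that of every control male, the difference was -0.41 (exact permutation, adjusted p = 0.00395). The 4 control females of form A had 0.84 to 1.38 and the 5 of form B 0.34 to 0.78, and among libraries of form A the difference was -0.16 (exact permutation p = 0.166). Over 7 litters with a control pup of each sex, the paired difference was -0.34 (exact sign-flip permutation p = 0.0312). Its adjusted p of 0.0625 was taken over both ratios alone, so it is not comparable with the 0.163 taken over 24 comparisons.

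High-dose males, all of form B, had mean ratios of 1.11 ± 0.21 (Aro5, n = 6), 1.12 ± 0.19 (BPA5, n = 7) and 1.13 ± 0.30 (CPF3, n = 7), close to the control males of form A. Treated females had 0.63 ± 0.22 (Aro5, n = 5), 0.68 ± 0.17 (BPA5, n = 4) and 0.61 ± 0.09 (CPF3, n = 4). Of the treated groups, BPA0.5 males had the lowest p for this ratio, at 1.27 ± 0.24 (n = 4) against 1.08 in control males (difference 0.19, exact permutation p = 0.049, adjusted p = 0.587). For Scn3a to Scn1a the lowest p was that of Aro5 males, with 3.16 ± 0.15 (n = 6) against 3.49 ± 0.41 in control males (difference -0.33, exact permutation p = 0.0771, adjusted p = 0.617).

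Within groups the 4 alpha subunits moved together. After the mean of each of the 13 groups was removed, the 6 pairs of alpha subunits correlated over 64 pups at Pearson's r of 0.64 to 0.83 and Spearman's rho of 0.62 to 0.84 (permutation within groups, adjusted p at most 0.000105). The pairs were Scn1a with Scn8a (r = 0.83), Scn3a (0.80) and Scn2a (0.68), Scn2a with Scn8a (0.71) and Scn3a (0.69), and Scn3a with Scn8a (0.64). Without the 2 pups farthest from the median the lowest was 0.63, and the lowest was 0.59 among pups of form A, 0.66 among pups of form B and 0.48 among the 13 treated females. Littermates among these pups are not independent.

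The 12 pairs of an alpha with a beta subunit had r between -0.16 and 0.36. Among the beta subunits, Scn3b and Scn4b had r = 0.44 and rho = 0.47 (permutation, adjusted p = 0.00282 and 0.00211), or 0.42 without the 2 farthest pups, and 0.31 and 0.62 within forms A and B. Scn2b and Scn4b had r = 0.36 and rho = 0.42 (permutation, adjusted p = 0.0272 and 0.0109), or 0.28 without the 2 farthest. In all, 147 relations of members, ratios and marker sums were computed and adjusted together.

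**Figure D5:**
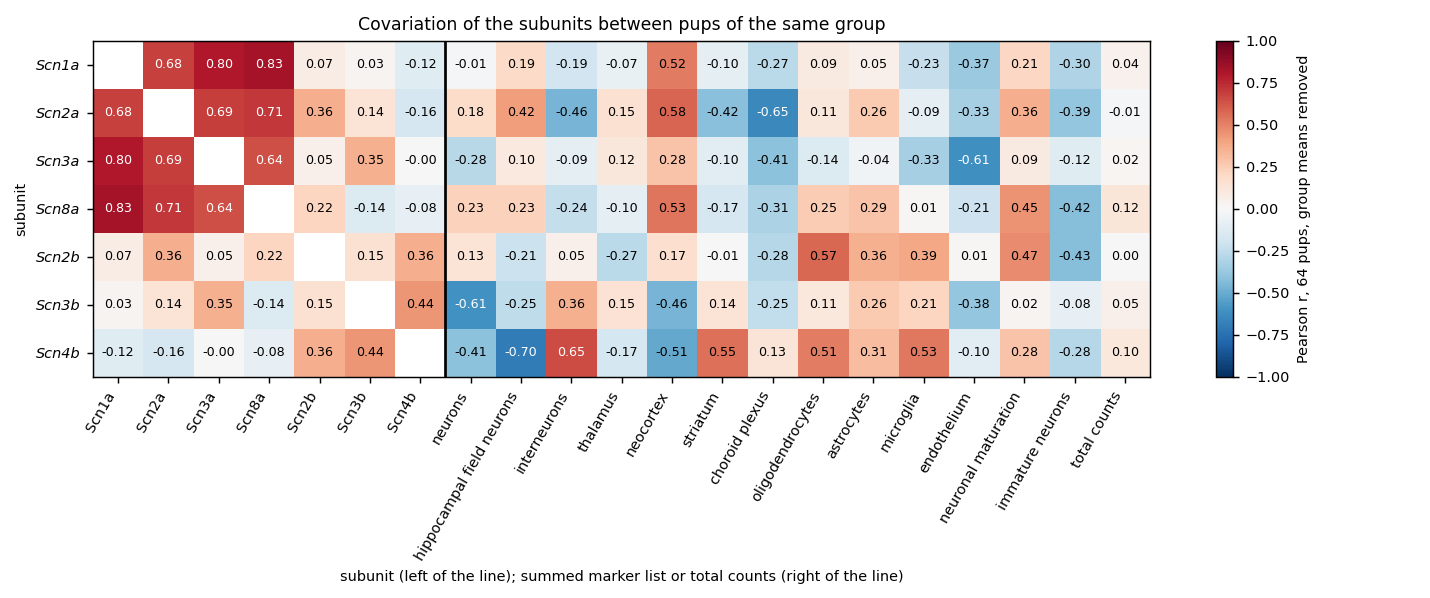
Pearson r over 64 pups, group means removed, between each subunit (y axis) and the other subunits, 13 summed marker lists and the total counts (x axis); red is positive and blue negative. The 4 alpha subunits form a block of r between 0.64 and 0.83, and Scn4b has 0.55 with the striatal and -0.70 with the hippocampal sum.

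Each subunit was related to 1 or more marker sums, some of them shared. Scn1a, Scn2a and Scn8a tracked the neocortical sum (r = 0.52, 0.58 and 0.53; rho = 0.48, 0.49 and 0.46), and Scn3a had r = 0.28 with it. The largest relation of Scn3a was with the endothelial sum (r = -0.61, rho = -0.63). Scn2a and Scn3a were lower in pups with a higher choroid plexus sum (r = -0.65 and -0.41, rho = -0.65 and -0.41). Scn4b was positively related to the interneuron (Gad1, Gad2, Lhx6, Sst; r = 0.65, rho = 0.58) and striatal sums (r = 0.55, rho = 0.44) and negatively to the hippocampal (r = -0.70, rho = -0.58) and neocortical sums (r = -0.51, rho = -0.45). Scn2b and Scn4b tracked the oligodendrocyte sum (among them Mbp, Mag and Mog; r = 0.57 and 0.51, rho = 0.57 and 0.44), and Scn3b was negatively related to the sum of the general neuronal markers (r = -0.61, rho = -0.56). Adjusted permutation p of r was at most 0.0127 for each of these relations other than that of Scn3a with the neocortical sum (0.0725). Without the 2 farthest pups, r with the neocortical sum was 0.47, 0.48 and 0.43 for Scn1a, Scn2a and Scn8a, and r of Scn4b was 0.46 with the striatal and -0.64 with the hippocampal sum. For Scn3b and the neuronal sum, r was -0.65 and -0.79 within forms A and B and 0.03 among the 13 treated females. For Scn4b and the interneuron sum, r was 0.71 and 0.72 within forms A and B and 0.21 among the 13 treated females. Scn1a had r = -0.19 with the interneuron sum (permutation, adjusted p = 0.311). Total counts had r between -0.01 and 0.12 with each subunit.

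The ratio of Scn3a to Scn8a was related to several sums, the largest being that of the general neuronal markers (r = -0.57, rho = -0.49, and -0.46 without the 2 farthest pups). Its r was -0.46 with the oligodendrocyte, -0.41 with the astrocyte and -0.41 with the neocortical sum. With the neuronal sum, r was -0.69 and -0.64 within forms A and B and 0.01 among the 13 treated females. Permutation gave adjusted p of 0.000346, 0.00911, 0.0272 and 0.0198 for these 4 relations. The ratio was lower in pups with a higher sum of the maturation markers, among them Slc12a5, Camk2a and Grin2a (r = -0.50, rho = -0.46). It was higher in pups with a higher sum of Dcx, Sox11, Gap43 and Nnat, which mark immature neurons (r = 0.43, rho = 0.44). Permutation within groups gave adjusted p of 0.00187 and 0.0102 for r, and without the 2 farthest pups r was -0.49 and 0.45. Within name forms A and B, r was -0.64 and -0.43 for the maturation sum and 0.56 and 0.25 for the immature sum. Taken alone, Scn8a had r = 0.45 with the maturation and -0.42 with the immature sum, and Scn3a had 0.09 and -0.12. The other subunits had 0.47 and -0.43 (Scn2b), 0.36 and -0.39 (Scn2a), 0.28 and -0.28 (Scn4b), 0.21 and -0.30 (Scn1a), and 0.02 and -0.08 (Scn3b). Scn3a to Scn1a had r = -0.25 and 0.36 with the same sums (permutation, adjusted p = 0.154 and 0.0138). Pups of 1 day of age were compared here, so the relation is between pups and not over age. Abundant genes weigh most in a sum: Nnat had a median of 1424 CPM and Sox11 of 15.1 CPM. Relations of the ratio with single marker genes were not computed.

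Among the genes most like each subunit over the 64 pups, out of 14289 genes, were Ank2, Psd3 and Hspa12a for Scn2a (r = 0.96, 0.93 and 0.93), Ncor1, Cdc42bpa and Nr2c2 for Scn1a (0.94 to 0.93), Ccdc88a, Pdpk1 and Macf1 for Scn3a (0.92) and Nav3, Adcy1 and Prkce for Scn8a (0.92 to 0.91). For the beta subunits they were Pim2, Hpcal4 and Zbtb4 for Scn2b (0.86 to 0.83), Rcn2, Nrxn3 and Trib2 for Scn3b (0.78 to 0.76) and Pcp4l1 and Aldh5a1 for Scn4b (0.85 and 0.82). Ank2 encodes ankyrin-B, which links membrane proteins to the spectrin skeleton, and Nrxn3 is a presynaptic adhesion protein.

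Other sodium channel genes and the proteins that hold the channels in place gave no call in the treatment comparisons either. Of the 6 other channel genes reported here (Scn4a, Scn7a, Scn9a, Scn10a, Scn11a and the leak channel Nalcn), 0 passed in either direction by edgeR in each of the 9 treatment comparisons, and the lowest p was that of Scn4a in Aro0.5 males (log2 difference -0.62 ± 0.20, adjusted p = 0.149). Of 17 genes of the axon initial segment and of channel regulation, 0 passed as well, and the lowest p was that of Fgf14, a channel-binding fibroblast growth factor homologue, in Aro5 males (0.70 ± 0.22, adjusted p = 0.225). Fgf14 also had the lowest p in the interaction of sex with Aro5, at -1.06 ± 0.30 (adjusted p = 0.249). From its own analysis, the paper describes Fgf14 as upregulated in males by each of the chemicals, without showing the values. The lowest p of these 17 genes belonged to Ank3, which encodes the ankyrin-G that anchors the channels, in BPA5 males (-0.13 ± 0.05, adjusted p = 0.501) and to Nfasc in CPF3 males (-0.13 ± 0.05, adjusted p = 0.360). The median log2 difference of the 17 in Aro5 males was 0.12, beside -0.00164 over all genes.

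Between control females and control males, 2 of the 17 initial segment genes and 1 of the 6 channel genes passed, beside the background of 30.9%. Sptbn4, the beta-IV spectrin of the axon initial segment, was higher in females by 0.76 ± 0.08 (adjusted p = 6.71e-08), and Trim46, which organises the microtubules there, by 0.40 ± 0.06 (adjusted p = 3.26e-05). Nalcn was lower in females, with a log2 difference of -0.21 ± 0.08 (adjusted p = 0.0352). For Sptbn4, Trim46 and Nalcn only the main fit was read, which takes no account of name form, litter or dissection time.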

How the data were processed

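RNA of the dorsal hippocampus of 64 pups was sequenced as 66 stranded, poly(A)-selected libraries. The authors aligned the reads with STAR to the rat build Rnor_6.0 and deposited whole-number counts per gene from featureCounts; kallisto is also named, without a role. Versions and the strand setting are not given in the sources used here. Sequencer and read length differ between labels and methods.

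Counts of the 2 pups with 2 libraries were summed. Treated groups were compared with the combined controls of their sex by the quasi-likelihood test of edgeR 4.0.16 (TMM scaling, filterByExpr, Benjamini-Hochberg adjustment over all genes tested, threshold 0.05), and by DESeq2 1.42.0 as an alternative. High-dose males, low-dose males and females were fitted apart, each with its controls. Group and replicate came from the labels. The p-values measure the spread between pups, some of which share a litter. Scn4b and Scn1a, with the fewest counts, are the least precise.

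The members and lists were chosen with earlier results of these data known. Genes named are the members, the gene of smallest p of each list, the list genes called between the sexes, and the 3 genes with the highest Pearson r to each member. Some genes that this rule or the lists hold are not reported here by name; the marker sums and the 17 initial segment genes count every gene of their list. Relations removed group means and used 100000 permutations within groups. The litter number in the labels pairs control pups of both sexes in 7 litters; the correlation of littermates' deviations ran from -0.34 to 0.27 (median -0.11). The fits were tested on simulated data. Alternatives covered scaling, filters, dissection time, library name form, control route, litter, separate libraries and leaving out each pup. Transcript lengths of the build were not used, so levels are not compared between genes.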

Additional observations from a re-analysis of the deposited data

Results flagged for a closer look

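In 6 of 117 sets of a measure within a group (5.13%), 1 pup stood apart from the rest by Dixon's criterion, which chance meets in about 1 of 20 sets. For Scn4b these were the Aro5 male 120-2y at 22.478 CPM (next highest 9.44 CPM), the BPA0.5 male 73-4y at 19.677 CPM (next 9.20 CPM) and the CPF3 male 45-1y at 15.98 CPM (next 6.71 CPM). Their striatal marker sums were 497, 565 and 404 CPM, against a median of 155 CPM over all pups, and the part of that tissue in these values was not tested. The BPA0.5 male 73-4y also had the low Scn3a value of 77.887 CPM, with the other 3 pups between 108 and 110 CPM. For Scn2b, the BPA5 male 81-1y had 105.33 CPM (next 83.6 CPM) and the CPF3 female 43-3x had 23.703 CPM, with the other 3 pups between 80.2 and 91.3 CPM.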

How the results depend on the processing

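Of the 63 treatment values none passed under any alternative but the window of dissection times, under which 3 subunits passed in Aro5 males (Scn3a, Scn1a and Scn8a) and 2 in the interaction of sex with Aro5 (Scn3a and Scn1a). Between the sexes of the controls, the count of subunits that passed was 1, against 0 with library name form as a covariate, 0 among libraries of form A and 2 with the litter as a replicate block; leaving out each pup gave 1 to 2, the latter without the CONSC female 9-1x. The cause was not tested. The litter as a replicate block changed no other call, with Scn3a at -0.44 and Scn1a at -0.77 for the interaction with Aro5 (adjusted p = 0.58 for both).

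Ratio differences near 0 changed sign, none of the reversed values past the threshold. For Scn3a to Scn1a, controls of the same route gave 0.0054 in BPA5 and -0.0591 in CPF3 females, and the time window -0.219 between CONF and CONSC males. For Scn3a to Scn8a, controls of the same route gave -0.00711 in Aro5 males, 0.0204 in Aro5 females and 0.072 in BPA5 females, and the time window -0.0104 in BPA5 and -0.0107 in CPF1 males. Leaving out each pup gave, for Scn3a to Scn1a, -0.00844 to 0.259 in BPA0.5 males, -0.0377 to 0.115 in Aro5 females and -0.106 to 0.306 between CONF and CONSC males. For Scn3a to Scn8a it gave -0.0466 to 0.0729 in Aro5, -0.0222 to 0.0708 in BPA5, -0.023 to 0.118 in CPF3, -0.0454 to 0.274 in Aro0.5 and -0.0765 to 0.082 in CPF1 males, and -0.13 to 0.00902 in BPA5 females. Between the sexes of the controls Scn3a to Scn8a kept its sign, at -0.411 to -0.296, and of these fits it passed in the one without the CONSC female 9-1x (adjusted p = 0.00395).

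The other values under the alternatives run kept their direction and side of the threshold, or their size within 1 SD, apart from the 9 single-gene values given with their comparisons above. Each member had 1 row, so summing rows was not applicable. Scn1a and Scn4b, with 4.39 and 2.96 CPM in their lowest pups, have the fewest counts and the widest errors. The fit of form B against form A was chosen after seeing the data.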
